A study of Mus musculus with 6 samples.

Results

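Prostaglandin synthesis and receptors are described here through 10 genes in whole mouse colon with and without Islr, which encodes a secreted leucine-rich repeat protein. The genes were taken by name. They are the phospholipase Pla2g4a, the cyclooxygenases Ptgs1 and Ptgs2, the synthases Ptges and Ptgis, the degrading enzyme Hpgd and the receptors Ptger2, Ptger3, Ptger4 and Ptgir. All 10 had at least 1 probe on the array, among 23462 genes that could be named, and together they had 15 of its 56605 probes. RNA came from the colon of 6 male mice, 3 labelled as controls and 3 as Islr knockouts, with 1 single-colour Agilent array per mouse. By the sample source, every mouse of both groups had drunk water with 3.5% dextran sulfate sodium, a chemical that damages the gut lining, over 5 days, followed by 1 day of recovery; the treatment field of the same labels states no treatment. The strain, the age and whether Islr was deleted in all cells or in 1 cell type are not given in the sources used here.

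Prostaglandins are lipid signals made from arachidonic acid. Cytosolic phospholipase A2 frees the acid from membranes, the cyclooxygenases turn it into the common precursor, and separate synthases then make prostaglandin E2, prostacyclin and the others. In the colon prostaglandin E2 is known for supporting epithelial survival and wound repair, and stromal and myeloid cells are known sources of inducible cyclooxygenase after injury. The signal ends when 15-hydroxyprostaglandin dehydrogenase, which is plentiful in colonic epithelium, oxidises the prostaglandin.

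The 6 arrays lay on 1 slide and were scanned on the same day, with the controls in row 1 and the knockouts in row 2, so slide row and genotype cannot be told apart. The 75th percentile of the signal was 6353, 7110 and 6541 intensity units in controls and 4910, 5820 and 5774 in knockouts, lower in every knockout, and every value below is the log2 of a spot's signal over that percentile of its array. The Islr probe differed by -2.44 on the log2 scale, knockout minus control (SE 0.21, limma adjusted p = 0.0171), and its knockout values, -1.40, -0.93 and -1.31, all lay below the control values of 1.57, 1.24 and 1.21, the first of them an outlier spot that the fit left out. Of the 10 colonic epithelium markers fixed for this work, each was well above background on at least 1 array. Knockout replicate 1 had the lowest percentile, the fewest spots well above background (69.4%, against 72.7% to 75.4% on the others) and the most outlier spots (16.0%, against 3.26% to 13.6%). The scanner software marked 15 of the 90 member spots (16.7%) as outliers; these were treated as missing, and each value with them kept is given as well. The number of arrays limits the precision, and since nothing but the labels states that the mice were handled separately, p-values measure the spread between these 6 samples.

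Signals for the prostaglandin genes were mostly lower in the knockout, except at the degrading enzyme Hpgd and the brightest Ptges probe. Of the 12 member probes that could be tested with outlier spots missing, 4 passed the 5% false discovery rate, all 4 lower, in Ptges (2 of its 3 probes), Ptgir and Pla2g4a. Over the whole array 2.42% of 35351 probes passed lower and 1.55% higher, 3.97% in all. At the looser rule of an unadjusted p under 0.05 with at least a 2-fold change, 6 of the 12 passed, 5 lower and 1 higher, against 5.69% lower and 5.86% higher among all probes, 11.6% together. The median difference over the 12 was -0.77, beside 0.00 over all tested probes. With outlier spots kept all 15 probes could be tested, the same 4 probes passed (2.89% of all probes passed lower and 1.96% higher, 4.85% together), 6 passed lower and 1 higher by the looser rule (5.55% and 6.02% of all probes), and 13 of the 15 had a negative difference. Every one of the 15 cleared background on all 6 arrays, so none entered through 1 group alone. At 8 of them, in 6 genes, every knockout array lay below every control array, and at none did every knockout lie above; over all probes well above background on all 6 arrays the lower pattern was seen in 16.4% and the higher in 17.5%. By the rule that the brightest tested probe stands for a gene, 2 of 8 tested genes passed, Pla2g4a and Ptgir, both lower, against 2.47% of 16451 genes lower and 1.35% higher, 3.82% in all. By the looser rule 3 genes were lower and 1 higher, against 5.70% and 6.65% of genes, 12.3% together.

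**Figure D1:**
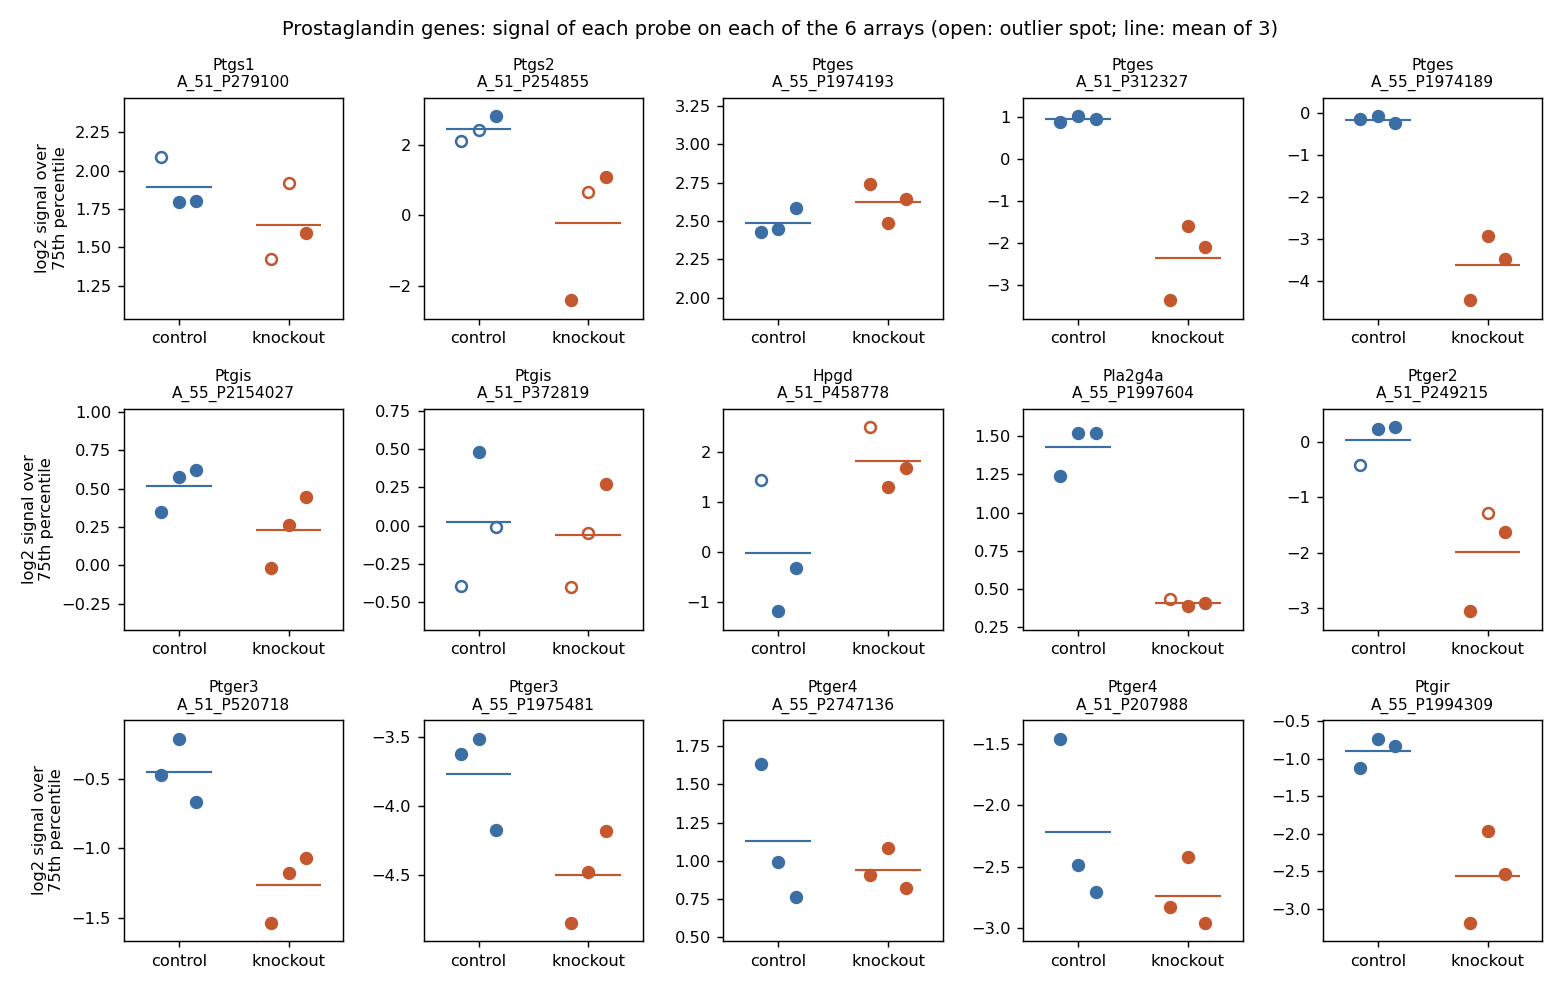
Log2 signal over the array's 75th percentile (y axis, scaled separately in each panel) for each of the 15 probes on the 3 control and 3 knockout arrays; open points are outlier spots and lines are means of 3 arrays. The knockout points of Ptgs2, Ptgir, Pla2g4a, Ptger2, both Ptger3 probes and 2 of the 3 Ptges probes all lie below the control points, and those of the brightest Ptges probe do not.

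Ptges, the microsomal prostaglandin E synthase that works with inducible cyclooxygenase, gave the largest falls of the 10 genes, at 2 of its 3 probes. At probe A_51_P312327 the controls stood at 0.87, 1.01 and 0.95 and the knockouts at -3.36, -1.60 and -2.10, or 11571, 14283 and 12643 against 478, 1915 and 1343 intensity units before scaling. The controls were nearly alike, the groups were far apart, and knockout replicate 1 was the lowest. The difference was -3.30 (SE 0.43, 95% interval -4.32 to -2.28), 9.83-fold, with a limma adjusted p of 0.0260. At probe A_55_P1974189 the controls stood at -0.16, -0.08 and -0.24 and the knockouts at -4.45, -2.92 and -3.47, the knockouts in the same order as at the first probe. The difference there was -3.46 (SE 0.37, limma adjusted p = 0.0189), 11.0-fold. The brightest probe, A_55_P1974193, showed no such fall: the controls stood at 2.43, 2.45 and 2.59 and the knockouts at 2.74, 2.49 and 2.64. Its difference was 0.14 (SE 0.15, limma adjusted p = 0.594), with a 95% interval of -0.22 to 0.49 that leaves out the size seen at the other probes. All 3 probes carry the same RefSeq accession and had no outlier spot, and which part of the transcript each one reads is not given in the sources used here. The calls of both lower probes were lost without control replicate 2 (adjusted p = 0.0762 and 0.0572), control replicate 3 (0.0717 and 0.0568) or knockout replicate 3 (0.0667 and 0.0562), with differences of -3.26 or lower in each of these fits.

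Ptgs2, the inducible cyclooxygenase, was bright in controls, at 2.11, 2.42 and 2.81, and stood at -2.40, 0.67 and 1.08 in knockouts. In intensity units before scaling these were 27354, 38084 and 45735 against 931, 9261 and 12193. Every knockout lay below every control, and knockout replicate 1 lay far below the other two. With 3 of its 6 spots marked as outliers, 2 of them in controls, the gene could not be tested with those spots missing. With them kept, the difference was -2.66 (SE 0.87, 95% interval -4.73 to -0.59), 6.33-fold, and did not pass over all probes (limma adjusted p = 0.110). The exact two-sided permutation test gave p = 0.1, the smallest that 3 arrays against 3 allow. Without knockout replicate 1 the difference was -1.57 with a smaller error (SE 0.26, limma adjusted p = 0.0689).

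Ptgs1, the constitutive cyclooxygenase, stood at 2.09, 1.80 and 1.80 in controls and 1.42, 1.92 and 1.59 in knockouts, and the groups overlapped. It also had 3 outlier spots, and with them kept its difference was -0.25 (SE 0.19, 95% interval -0.70 to 0.20, limma adjusted p = 0.433). The intervals of Ptgs1 and Ptgs2 overlap, and the 2 genes were not tested against each other. Ptgis, the prostacyclin synthase, also overlapped between groups. Its probe without outlier spots, A_55_P2154027, stood at 0.35, 0.57 and 0.62 in controls, against knockout values of -0.02, 0.26 and 0.45. The difference was -0.29 (SE 0.18, 95% interval -0.72 to 0.15, limma adjusted p = 0.354). The other Ptgis probe had 4 outlier spots and a difference of -0.08 with them kept (SE 0.28), which turned to 0.14 without control replicate 2 and to 0.09 without knockout replicate 1.

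Pla2g4a, the cytosolic phospholipase A2 that frees arachidonic acid, was lower by a smaller and very even amount. The controls stood at 1.24, 1.52 and 1.52 and the knockouts at 0.44, 0.39 and 0.41, so the knockouts differed from each other by far less than the controls did. The difference was -1.03 (SE 0.18, 95% interval -1.48 to -0.57, limma adjusted p = 0.0468), 2.04-fold, over 3 controls and 2 knockouts, as the spot of knockout replicate 1 was an outlier. With that spot kept it was -1.02 (limma adjusted p = 0.0277), and that call was lost in 5 of 6 fits with 1 array left out (adjusted p from 0.0535 to 0.0958), all but the one without control replicate 1. Of the 4 fits with an array left out that could be made, the call was lost without control replicate 2 (adjusted p = 0.152), control replicate 3 (0.127) and knockout replicate 1 (0.0648), with differences of -0.98 to -1.03. It was also lost with no filter on dim probes (0.0690) and in the fit on the mean of each gene's probes (0.0587).

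The promoters of Ptges and Ptgs2 are shown as those of the synthesis genes with the largest differences: 250 bases upstream of the annotated start, 5′ to 3′, from RefSeq on GRCm38.p6. A promoter was given for 9 of the 10 genes, Ptgis being the other, and for 10 windows in all. Capitals mark matches to any of 6 short motifs, searched on both strands in these windows and in all 32851 promoter windows of the same length. The core promoter box, TATAAA, was found in 12.4% of all windows. The full cyclic AMP response element, TGACGTCA, was found in 1.55%. Its shorter form, TGACG, which lies within the full one, was found in 17.8%. The AP-1 site, TGANTCA, was found in 6.75%. The TEAD site, GGAATG, was found in 12.6%. The E-box, CACGTG, was found in 6.02%.
Ptges, chr2:30903298-30903547, minus strand: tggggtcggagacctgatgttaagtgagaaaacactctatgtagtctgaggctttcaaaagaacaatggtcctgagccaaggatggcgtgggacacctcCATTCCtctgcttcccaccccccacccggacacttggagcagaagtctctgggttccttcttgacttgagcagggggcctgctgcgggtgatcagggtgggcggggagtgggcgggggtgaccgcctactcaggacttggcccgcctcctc
Ptgs2, chr1:150099781-150100030, plus strand: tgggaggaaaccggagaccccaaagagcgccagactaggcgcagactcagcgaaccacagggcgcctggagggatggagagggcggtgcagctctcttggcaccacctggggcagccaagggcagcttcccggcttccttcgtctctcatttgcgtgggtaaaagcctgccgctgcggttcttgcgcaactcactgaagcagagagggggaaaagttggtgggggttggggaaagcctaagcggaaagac
The 1 match in Ptges is a TEAD motif on the reverse strand, 151 bases upstream of the start. In Ptgs2 none of the 6 was found within these 250 bases. For every gene, bases past the annotated start or further upstream were not searched, so a motif there would be missed. Of the other member windows only 1 of Pla2g4a held a match, to the core promoter box. A match is a run of letters and no measured binding site.

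Hpgd, the 15-hydroxyprostaglandin dehydrogenase that inactivates prostaglandins, was the member with the largest positive difference. Its values were 1.42, -1.18 and -0.32 in controls, against knockout values of 2.48, 1.30 and 1.68. The controls spread widely, and control replicate 1, an outlier spot, lay above knockout replicate 2, so the groups overlapped. With outlier spots missing (2 arrays per group) the difference was 2.24 (SE 0.36, 95% interval 1.28 to 3.19), 4.71-fold, and missed the threshold (limma adjusted p = 0.0510). With them kept it was 1.84 (SE 0.66, limma adjusted p = 0.134), and 1.27 without control replicate 2. The call was gained with median centring (adjusted p = 0.0376), with normexp and quantile normalization (0.0406), with array weights (0.0118) and without control replicate 1 (0.0436). With array weights 26.3% of all probes passed, against 3.97% in the main fit. On the same arrays the mean level of the 10 colonic epithelium markers was 2.43, 0.23 and 1.75 in controls and 3.08, 2.79 and 2.74 in knockouts, with the same order of control arrays as Hpgd and another order of knockouts, replicates 2 and 3 being exchanged. Of these markers 8 could be tested, and all 8 had a positive difference (median 1.21, 0 passing with limma, 2 with an unadjusted p under 0.05, where 13.7% of all genes were higher at that rule). Their part in the difference of Hpgd was not tested. Its promoter, shown for the member with the largest positive difference, held none of the 6 motifs.
Hpgd, chr8:56294302-56294551, plus strand: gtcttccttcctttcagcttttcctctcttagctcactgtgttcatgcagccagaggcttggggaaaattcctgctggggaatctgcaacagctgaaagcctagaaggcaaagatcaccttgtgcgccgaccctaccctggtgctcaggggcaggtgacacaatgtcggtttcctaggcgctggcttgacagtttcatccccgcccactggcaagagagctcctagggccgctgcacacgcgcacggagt

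The receptors differed among themselves. Ptgir, the prostacyclin receptor, which raises cyclic AMP, stood at -1.12, -0.73 and -0.83 in controls and -3.18, -1.96 and -2.53 in knockouts, with no overlap. The difference was -1.67 (SE 0.32, 95% interval -2.42 to -0.91), 3.17-fold, with a limma adjusted p of 0.0446 and no outlier spot. The call was lost when 1 of 4 arrays was left out: control 2 (adjusted p = 0.127), control 3 (0.117), knockout 1 (0.0701) and knockout 3 (0.106), with differences of -1.35 to -1.68, and was also lost with no filter on dim probes (0.0688) and in the fit on the mean of each gene's probes (0.0593). Its promoter is shown as that of the called receptor, and it held none of the motifs.
Ptgir, chr7:16906240-16906489, plus strand: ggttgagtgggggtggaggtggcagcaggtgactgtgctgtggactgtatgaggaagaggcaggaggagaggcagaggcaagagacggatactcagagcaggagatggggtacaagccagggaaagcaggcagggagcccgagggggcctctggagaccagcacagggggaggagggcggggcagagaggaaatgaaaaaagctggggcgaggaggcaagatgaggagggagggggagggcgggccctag

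Ptger2 encodes EP2, a prostaglandin E2 receptor that raises cyclic AMP. It stood at -0.41, 0.24 and 0.27 in controls and -3.06, -1.28 and -1.62 in knockouts, again without overlap and with knockout replicate 1 the lowest. The difference was -2.59 (SE 0.51, 95% interval -3.93 to -1.25), 6.02-fold, over the 2 arrays of each group without an outlier spot, and it did not pass (limma adjusted p = 0.0653). With outlier spots kept it was -2.02 (limma adjusted p = 0.0593), and -1.48 without knockout replicate 1. It passed with median centring (0.0451), with normexp and quantile normalization (0.0406) and with array weights (0.0160), where 26.3% of all probes passed.

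Ptger3 encodes EP3, a prostaglandin E2 receptor that lowers cyclic AMP. Its brighter probe stood at -0.47, -0.21 and -0.67 in controls and -1.53, -1.18 and -1.07 in knockouts, and its dimmer one at -3.62, -3.51 and -4.18 against -4.85, -4.48 and -4.18. No group overlapped at either, although control replicate 3 and knockout replicate 3 were nearly equal at the dimmer. The differences were -0.81 (SE 0.20, limma adjusted p = 0.0676) and -0.73 (SE 0.26, limma adjusted p = 0.129). The brighter probe passed with normexp and quantile normalization (limma adjusted p = 0.0465) and with array weights (0.0178). It passed in no fit with 1 array left out (0.0870 to 0.213). Ptger4, which encodes EP4, the other cyclic AMP-raising prostaglandin E2 receptor here, overlapped between groups at both probes. Its brighter probe stood at 1.63, 0.99 and 0.76 in controls and 0.91, 1.08 and 0.82 in knockouts, with control replicate 1 above the rest. The difference was -0.19 (SE 0.25, 95% interval -0.78 to 0.40, limma adjusted p = 0.659) and became 0.06 without control replicate 1. The dimmer probe differed by -0.52 (SE 0.35, 95% interval -1.35 to 0.31, limma adjusted p = 0.380). Whether Ptger2 differed more than Ptger4 was not tested.

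**Figure D2:**
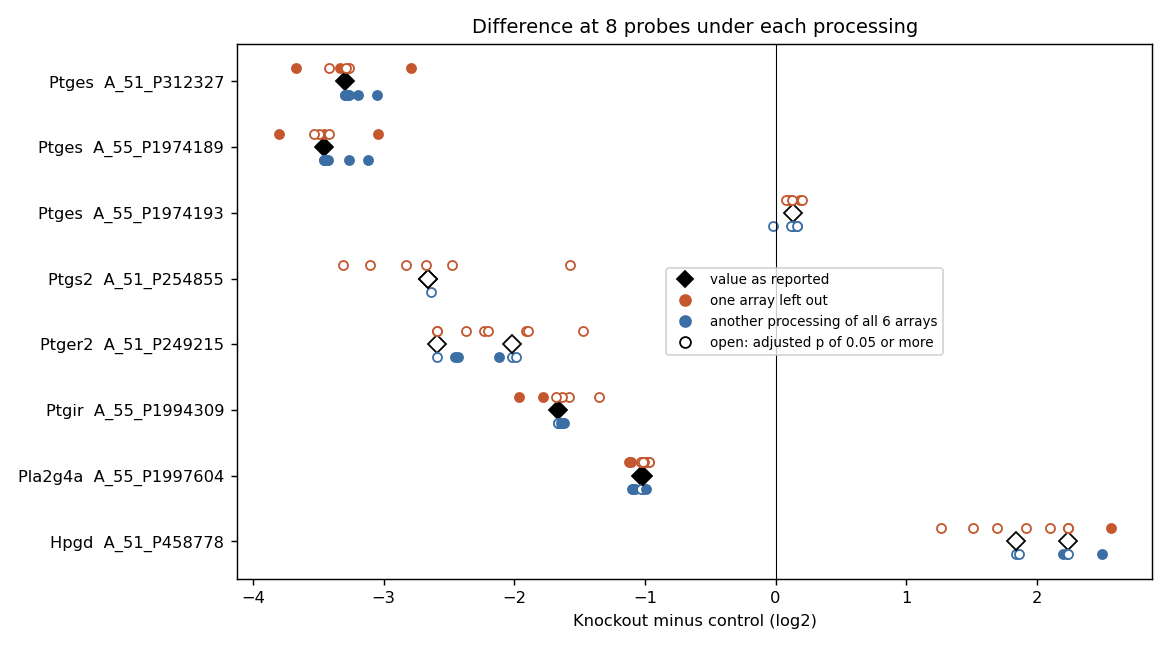
Knockout minus control difference on the log2 scale (x axis) at 8 probes as reported (black), with 1 array left out (orange) and under another processing of all 6 arrays (blue); filled symbols have an adjusted p under 0.05, and probes with an outlier spot show values with those spots missing and kept. Each stays on its side of 0 in every setting plotted except the brightest Ptges probe (-0.02 with normexp and quantile normalization), while filled and open symbols mix at each of the probes called.

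**Figure D3:**
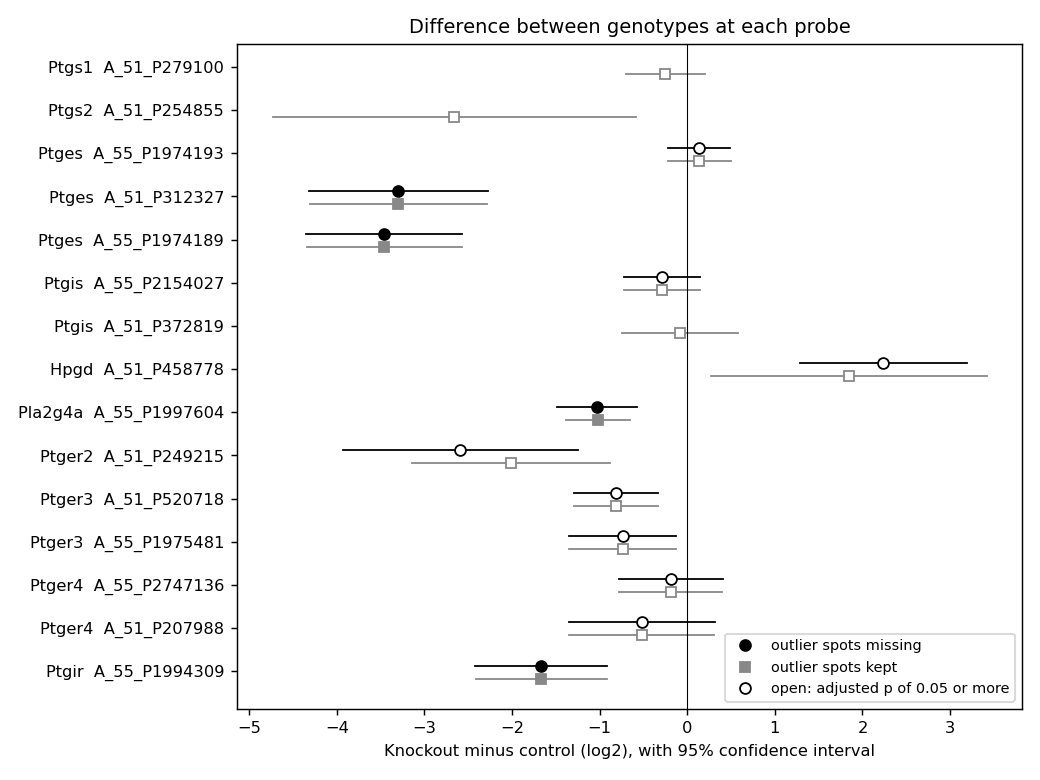
Knockout minus control difference on the log2 scale (x axis) with its 95% confidence interval for each of the 15 probes, with outlier spots missing (black circles) and kept (grey squares); filled symbols have an adjusted p under 0.05. Filled symbols appear for 2 Ptges probes, Pla2g4a and Ptgir, all to the left of 0, whereas Hpgd lies to the right, at 2.24 or 1.84.

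The other genes of prostanoid and lipoxygenase metabolism were taken from 5 lists by role, 49 genes in all. Of the 44 that could be tested, 3 passed (6.82%, against 3.82% of all named genes), 2 higher and 1 lower, and the median difference was 0.08, beside 0.01 over all 16451 genes. The lower one, Ptgdr, met the background rule only through the controls, where it was higher. The lists did not lean one way together.

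Among 12 tested phospholipases other than Pla2g4a, 7 had a positive and 5 a negative difference, and both that passed were higher. Pla2g5, a secreted phospholipase A2, stood at -0.75, -0.95 and -0.89 in controls, against 1.81, 1.03 and 1.01. With 1 control spot left out as an outlier the difference was 2.21 (SE 0.29, limma adjusted p = 0.0321). Its dimmer probe rose by 1.60 (limma adjusted p = 0.0441), but was well above background on only 2 of 3 control arrays. That probe met the background rule through the knockout group alone, where it was higher, so it adds no separate support. Pla2g4f, a cytosolic relative of Pla2g4a, stood at -3.17, -4.53 and -3.45 against -0.28, -1.08 and -0.41, a difference of 3.13 (SE 0.40, limma adjusted p = 0.0260). So 1 cytosolic phospholipase passed lower and another passed higher in the same tissue. The largest positive difference was that of Pla2g2f (3.22, limma adjusted p = 0.0643), which was well above background on 2 of 3 control arrays, and the largest negative one that of Pla2g12a (-1.13, limma adjusted p = 0.0547). The call of Pla2g4f was lost when control 3 (0.0661), knockout 1 (0.0614) or knockout 3 (0.0757) was left out. That of Pla2g5 was lost without knockout replicate 3 (0.0776), and without control replicate 2 or 3 it could not be tested. With no filter on dim probes Pla2g5 (0.0509) lost its call and Pla2g4f (0.0422) did not.

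None of 8 further synthases passed with limma (1 higher and 1 lower had an unadjusted p under 0.05, as did 28.2% of all 16451 genes, 13.7% higher and 14.5% lower). Their differences ran from -0.72 for Tbxas1, the thromboxane synthase of platelets and macrophages (limma adjusted p = 0.148), to 1.07 for the carbonyl reductase Cbr1 (0.0721). Ptges2 and Ptges3, which encode the other prostaglandin E synthases, differed by 0.26 (SE 0.23) and 0.03 (SE 0.18). These values were far from the 2 lower Ptges probes and close to the brightest Ptges probe (0.14, SE 0.15). None of 6 genes of breakdown and transport passed with limma (2 higher had an unadjusted p under 0.05, against 13.7% of all genes); Akr1c18 had the largest positive difference (1.82, limma adjusted p = 0.0648) and the exporter Abcc4 the largest negative one (-0.41, 0.196). Slco2a1, the transporter that brings prostaglandins to Hpgd, differed by 0.73 (SE 0.20, limma adjusted p = 0.0793), with every knockout (1.60 to 2.02) above every control (0.85 to 1.31).

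Of 6 other receptors, 5 had a negative difference and 1 passed. Ptgdr, a prostaglandin D2 receptor, stood at -3.37, -2.23 and -2.35 in controls and -6.76, -5.21 and -5.22 in knockouts, where it was well above background on 2 of 3 arrays. Ptgdr thus met the background rule through the control group alone, where it was higher, so its call adds no separate support. Its difference was -3.08 (SE 0.50, limma adjusted p = 0.0362) and lost its call when control 2 (0.0975), control 3 (0.0982), knockout 1 (0.0567) or knockout 3 (0.0798) was left out, and with no filter on dim probes (0.0565). Ptger1, which encodes EP1, was also dim, met the background rule through the control group alone and differed by -1.93 (limma adjusted p = 0.0516). The thromboxane receptor Tbxa2r had the largest positive difference of this list, 0.18 (limma adjusted p = 0.619). The lipoxygenase and leukotriene genes split evenly: 6 of 13 tested were positive and 7 negative, with a median of -0.07 and none passing with limma (3 lower and 1 higher had an unadjusted p under 0.05, 4 of 13 against 28.2% of all genes). They ran from -1.82 for Fpr2 (limma adjusted p = 0.148), a lipoxin and formyl peptide receptor of neutrophils, to 0.68 for the leukotriene C4 synthase Ltc4s (0.0851).

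**Figure D4:**
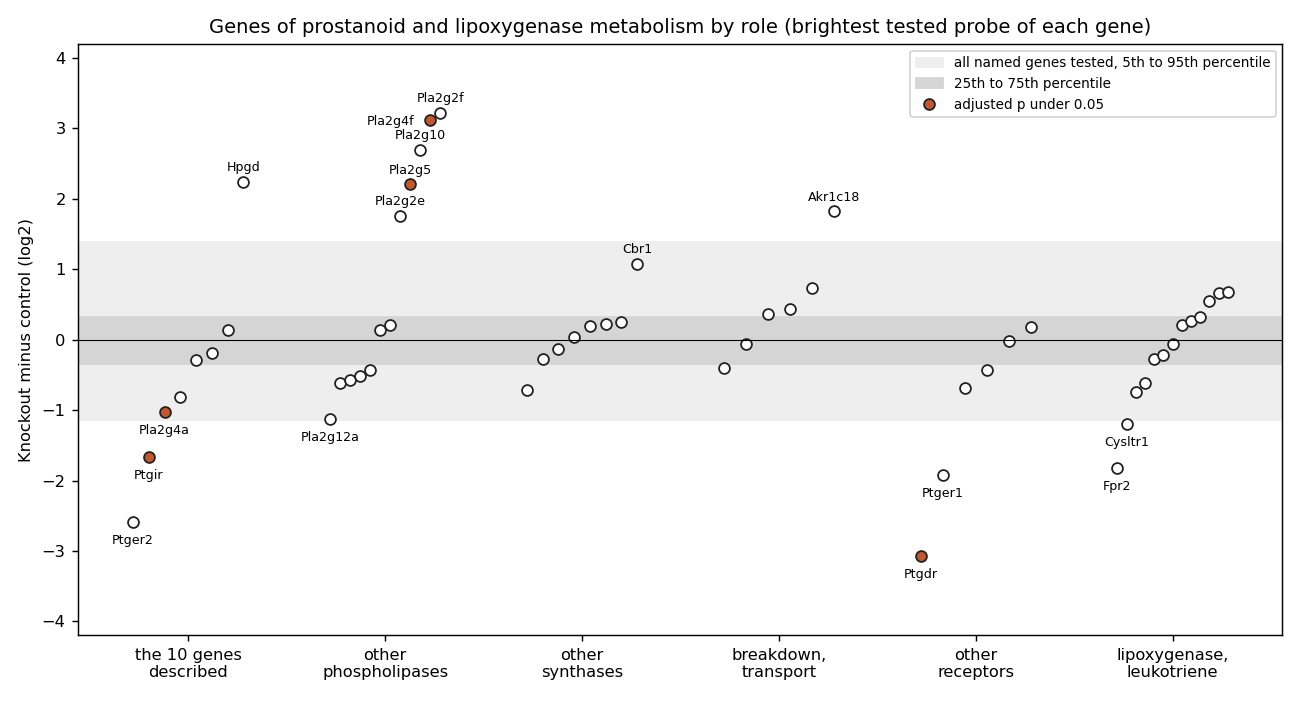
Knockout minus control difference on the log2 scale (y axis) of each tested gene by role, each by its brightest tested probe; filled points have an adjusted p under 0.05 and grey bands give the spread of all 16451 named genes tested. Pla2g4a and Ptgir are filled below 0 among the 10 genes, Pla2g5 and Pla2g4f above 0 among the other phospholipases and Ptgdr below 0 among the receptors.

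Marker levels of several cell types differed between the groups. Fewer cells of a type and less RNA per cell cannot be told apart in whole tissue. All 10 fibroblast markers had a negative difference (median -0.68), but an uneven one. The 2 passing were Twist2 (-3.87) and Pdgfrb (-1.17), while Dcn (-0.25), Thy1 (-0.13) and Col1a2 (-0.08) differed little. Over all 16451 named genes, 2.47% passed lower and 1.35% higher. The mean level of the 10 fibroblast markers, Twist2 among them, was 1.90 to 2.10 in controls and 0.57 to 1.26 in knockouts. Of 8 neutrophil markers tested 6 passed, all lower (median -3.30), with mean levels of 0.56 to 0.82 and -1.55 to -0.82. The other 2 tested, Csf3r (0.17) and Trem1 (0.18), were positive and did not pass. Of 8 macrophage markers 6 were negative and 1 passed (median -0.81), with mean levels of 1.11 to 1.91 and 0.23 to 0.72. All 9 endothelial markers tested were negative and 0 passed with limma (7 had an unadjusted p under 0.05, against 14.5% of all genes lower, median -0.99), with mean levels of 0.32 to 0.52 and -1.55 to -0.25. Knockout replicate 1 had the lowest fibroblast, neutrophil, macrophage and endothelial levels, as it had the lowest Ptgs2, Ptger2, Ptgir and lower Ptges values, and it is the array with the lowest overall signal and the most outlier spots. Of 6 smooth muscle markers tested all were positive and 0 passed with limma (2 had an unadjusted p under 0.05, against 13.7% of all genes higher, median 0.36), with mean levels of 2.19 to 2.48 and 2.73 to 2.85. Tuft cell markers, a list that holds Ptgs1 itself, had mean levels of -2.04 to -1.86 and -1.77 to -1.39, with 6 of 8 tested positive and Trpm5 passing. Mast cell markers were dim and overlapped, at -4.03 to -2.53 and -4.17 to -3.77, with 2 of 5 tested positive and Hdc passing lower. The enteric nervous system list stood at -0.08 to 0.18 and -0.67 to -0.17 (1 of 8 tested positive, 0 passing with limma, 2 lower at an unadjusted p under 0.05, against 14.5% of all genes), and B and plasma cells at 0.59 to 1.84 and 0.15 to 1.45 (0 of 7 tested positive, 0 passing with limma at either an adjusted or an unadjusted p under 0.05). No marker of these lists with a probe was below background at all its probes on all 6 arrays. The part of these marker differences in the prostaglandin genes was not tested.

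**Figure D5:**
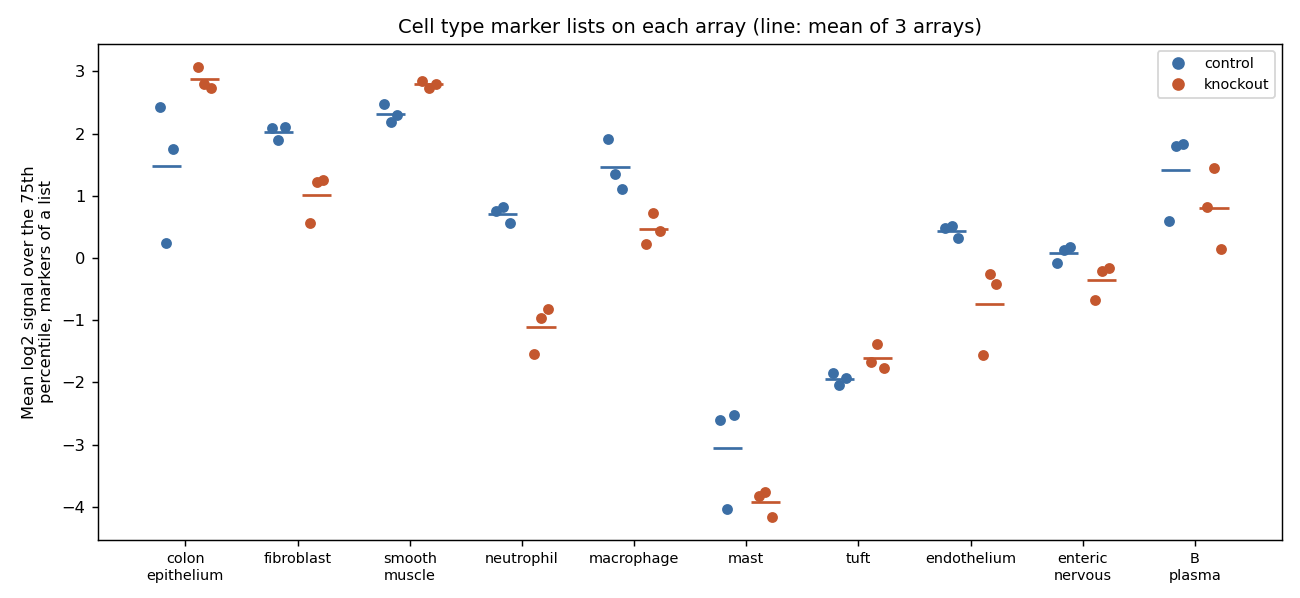
Mean log2 signal over the 75th percentile (y axis) of the markers of each of 10 cell type lists on the 3 control and 3 knockout arrays, outlier spots kept; lines are means of 3 arrays. Fibroblast, neutrophil, macrophage, endothelial and enteric nervous system points are lower in every knockout than in every control, and colonic epithelium, smooth muscle and tuft cell points are higher.

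Genes whose values ran most like those of the called members were sought over the 6 arrays among 23967 named probes well above background on all of them. For Pla2g4a these were Wbp4, Pros1 and Glis3 (Pearson r of 0.9926, 0.9924 and 0.9921), and for Ptgir they were Chst7, Zfp653 and Plxnd1 (0.9993, 0.9984 and 0.9982). For the lower Ptges probe A_55_P1974189 they were Smoc1, Inhbb and Gprc5b (0.9997, 0.9985 and 0.9981). For A_51_P312327 they were 6330549D23Rik, Camk2n2 and Cplane1 (0.9988, 0.9987 and 0.9987). Between the genotypes these 12 probes differed by amounts from -0.33 for Wbp4 to -2.79 for Smoc1. The 6 points lie on 1 slide and fall into 2 groups that differ in genotype and slide row together, so such values are a description only.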

How the data were processed

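The authors deposited 1 Agilent Feature Extraction file per mouse (version 11.5.1.1, design 074809, per the file headers; the submitters' processing notes give 10.7). The deposited processed signal is an intensity, spatially detrended and background-subtracted, and not scaled from array to array, per the file headers; the red channel was used, although the labels name Cy3 and a green column. The series value table, also intensities deposited by the authors, matched the scanner files (log2 correlation of at least 0.9999993).

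Signals were converted to log2 and scaled by the 75th percentile of the 59305 non-control spots. Spots marked non-uniform or population outliers were set missing, and spots of a probe were averaged. Probes well above background on all arrays of 1 group, with at least 2 usable values per group, were tested (35351 of 56605) with limma 3.58.1 in R 4.3.3, genotype as the only term, two-sided, with Benjamini-Hochberg adjustment over all tested probes. No spot was saturated. Probes were named through RefSeq accessions in GRCm38.p6, 33767 of them (59.7%); the files use mm9, so genes are given without coordinates, and only the promoter windows carry those of their own table. The brightest tested probe stood for a gene.

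On data simulated for this comparison over 35351 probes, the fit called 47% of 200 altered probes (66.2% where the log2 change was 2 or more), and 5 of 99 calls were false. The simulated noise was drawn independently for each probe and array, with no array-wide differences. These shares therefore do not give the error rate of the calls on the real arrays. Genes named beyond the 10 by rule were those passing in the role lists, each list's largest rise and fall, and the 3 genes most like each called member. Outside this rule, Ptges2, Ptges3, Slco2a1, Ptger1, the single cell type markers named and the likeness of the Ptges probes were chosen with their values in view. Members, markers and lists were chosen with earlier results of these data known.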

Additional observations from a re-analysis of the deposited data

How the results depend on the processing

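The count of all called probes was 1403; it was 2249 with median centring, 2780 with normexp and quantile normalization, 484 with no filter on dim probes (more probes tested), 9292 with array weights and 2274 from the series value table, and 40 to 2114 with 1 array left out. Array weights gave 49.4% of calls higher, against 39.1%; with 1 array left out this share ran from 10% (4 of 40, without knockout replicate 3) to 55.1% (1164 of 2114, without control replicate 1). The 2 member genes called became 4, 5, 0 and 5 under the first 4 of these, 1 with the mean of a gene's probes, and 0 to 3 with 1 array left out. The median difference of all tested member genes, -0.55, was -0.90 with the mean of a gene's probes and -0.65 to -0.18 with 1 array left out. The 3 other genes of the role lists that passed became 6, 6, 1, 14 and 5 in the same order, 1 with the mean of a gene's probes, and 0 to 5 with 1 array left out. The median over all tested genes of the role lists, 0.08, was 0.0044 with normexp and quantile normalization, 0.14 from the value table, 0.013 with the mean of a gene's probes, and -0.18 to 0.092 with 1 array left out. It turned negative when control 2 (-0.12), control 3 (-0.18), knockout 1 (-0.0047) or knockout 3 (-0.04) was left out. The cause of these changes was not tested.

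Of 145 values of single member probes under an alternative, 116 kept their direction and side of the threshold, 17 lost the call, 9 gained it and 3 turned. The turned ones were the brightest Ptges probe with normexp and quantile normalization (-0.018), Ptges by the mean of its probes (-2.21, adjusted p = 0.0343) and the brighter Ptger4 probe without control replicate 1 (0.0617, in a range of -0.37 to 0.0617 with 1 array left out). With outlier spots kept, the second Ptgis probe ran from -0.29 to 0.14 with 1 array left out, turning without control replicate 2 (0.14) and knockout replicate 1 (0.0876). Normexp on the mean spot signal was not run, as the median signal was used; that choice, and leaving out arrays with outlier spots kept, were made after seeing the data. No paired analysis was made, as the labels pair no control mouse with a knockout mouse. The labels give no replicate numbers either, and those used here follow the listed order of the samples within each group.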
